A study of Mus musculus with 6 samples.

Results

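Alveolar macrophages exposed to hematin held more RNA of 4 gene models whose identifiers lie close together, uc008ybl.2, uc008ybm.1,uc008ybn.1, uc008ybs.1 and uc008ybt.1. Each of these is 1 row of the deposited tables, and the second of them joins 2 transcripts. The 4 were taken out of 28427 rows by identifier, and they were chosen by their rise after hematin in these same libraries. Their rise is therefore described here with no test. Another 17 rows have a first identifier that starts with uc008yb, and they serve as the local background.

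The cells were CD11c+ Siglec-F+ macrophages sorted from lung lavage of C57BL/6J mice, with the lavage of 3 mice pooled for each sample. Mock samples (n = 3) were cultured with the solvent of hematin, which is 0.1 M NaOH, and hematin samples (n = 3) with 40 μM hematin. Both cultures lasted 2 h, without any genetic change named in the labels. In the series' own design text the control cells are instead described as untreated. No age of the mice is given in the labels. The numbers 1 to 3 used below follow the order of deposit and only name a library.

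Alveolar macrophages are the resident phagocytes of the airspaces, where they clear inhaled particles, surfactant and dying cells. They meet heme when red cells leak into the lung and break down. Heme carries iron in a porphyrin ring, and hematin is its oxidised form with a hydroxide on the iron. Free heme can act on macrophages as a source of oxidants and as an inflammatory stimulus, while the enzyme heme oxygenase breaks it down. A gene model in these tables stands for the transcripts that were counted together as 1 gene. Where models resemble each other, the counting program RSEM divides a read among them by estimated probability, so a count need not be whole.

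None of the 55116 transcript identifiers in the tables was found in the reference tables used here (0 matched), so the models carry no gene symbols. Roles, pathway lists, markers of the sorted cells and sequences are for that reason not given. Models are said below to adjoin or lie next to each other by identifier only, since their positions in the genome were not looked up.

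The libraries held between 22748791 and 36839446 expected counts. Counts were scaled to library size (CPM) with the TMM method, which corrects library totals so that most models agree between libraries. Fold changes are hematin over mock from edgeR's quasi-likelihood fit of all tested models, given as log2 with a standard error (SE). The SE was worked back as the absolute log2 fold change over the square root of the fit's F statistic. That statistic draws on the spread of other models too. For the members the SE is a description and is not read as a test. In that fit 86 of 12595 tested models, or 0.683%, were called higher and 14, or 0.111%, lower at a Benjamini-Hochberg adjusted p below 0.05. All 4 members were among the 86, and nothing is read from that count because their rise in these libraries chose them. With plain library totals in place of TMM, the median log2 fold change of all models moved from -0.0086 to -0.20, and 68 models were called higher and 147 lower. With limma-trend on log2(FPKM + 1), which also lacks TMM, 64 were called higher and 91 lower. Each sample is a pool, so errors measure the spread between pooled samples. In bulk RNA, more expressing cells and more RNA per cell cannot be told apart.

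The largest change of the 4 was that of uc008ybl.2, a row with 1 transcript. Its level was 759, 608 and 287 CPM in mock 1, 2 and 3 and 1702, 2825 and 2290 CPM in hematin 1, 2 and 3. Every hematin library lay above every mock library, and mock 3 lay well below the other mock libraries. The mean level went from 551 ± 241 to 2272 ± 562 CPM (SD, n = 3), a 4.12-fold difference. The log2 fold change was 2.04 ± 0.34 (SE). The smallest hematin value was 2.24 times the highest mock value.

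The most abundant of the 4 was uc008ybm.1,uc008ybn.1, which adjoins it in identifier order. It stood at 3521, 3755 and 2789 CPM in mock 1, 2 and 3 and at 6583, 11346 and 11927 CPM in hematin 1, 2 and 3. The groups did not overlap, and hematin 1 lay far below the other hematin libraries. The means were 3355 ± 504 and 9952 ± 2932 CPM (SD, n = 3), a 2.97-fold difference with a log2 fold change of 1.57 ± 0.25 (SE). These values rest on 70917 to 323701 expected counts per library, so counting error is small beside the spread between libraries.

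A smaller change was seen in uc008ybs.1, which has the longest model of the 4. Its level was 531, 621 and 408 CPM in mock 1, 2 and 3 and 1011, 1431 and 1331 CPM in hematin 1, 2 and 3. Again the groups did not overlap, with mock 3 and hematin 1 the lowest of their groups. The means of 520 ± 107 and 1258 ± 219 CPM (SD, n = 3) differed 2.42-fold, a log2 fold change of 1.27 ± 0.19 (SE).

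The scarcest member was uc008ybt.1, which adjoins uc008ybs.1 in identifier order. Its level was 31.9, 47.0 and 25.4 CPM in mock 1, 2 and 3 and 84.2, 135 and 141 CPM in hematin 1, 2 and 3. Its groups did not overlap either. The means were 34.8 ± 11.1 and 120 ± 31.3 CPM (SD, n = 3), a 3.46-fold difference with a log2 fold change of 1.79 ± 0.25 (SE). Its counts ran from 646 to 3826 per library. Over all tested models, 1228, or 9.75%, had the 3 hematin values above the 3 mock values, as these 4 had.

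**Figure D1:**
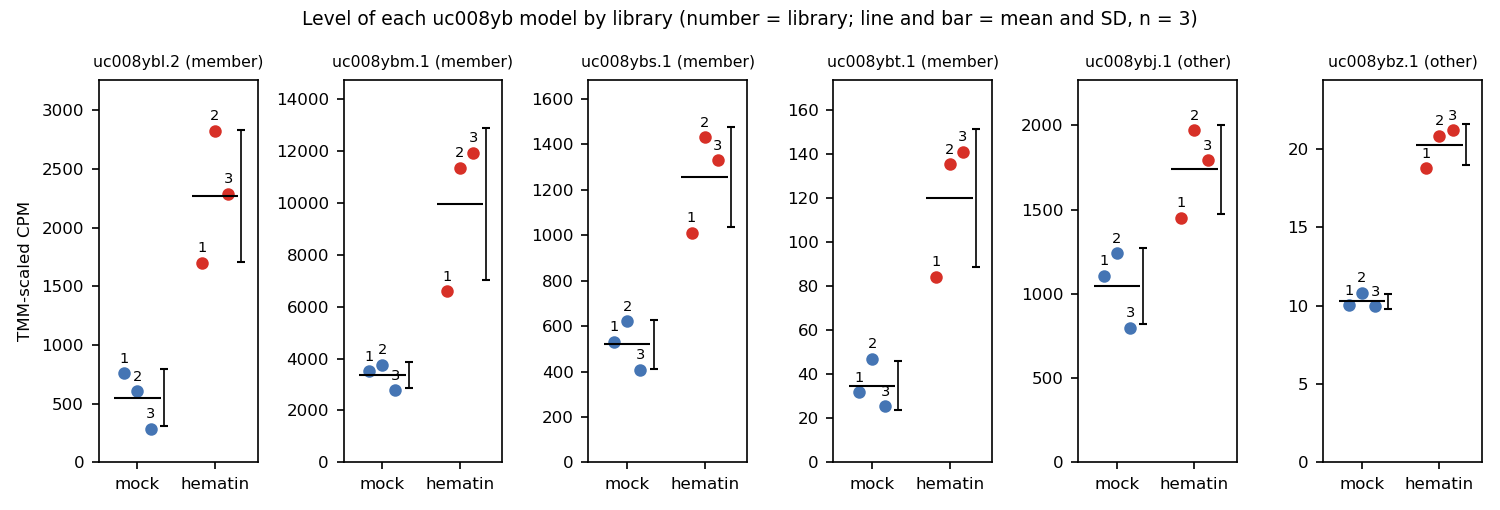
TMM-scaled CPM (vertical axes, from 0, with a scale for each panel) of the 4 members and of the uc008yb models uc008ybj.1 and uc008ybz.1,uc008yca.2,uc008ycb.2 in mock (blue) and hematin (red) libraries. Points are libraries with their number, lines are means and bars are SD (n = 3). The hematin points lie above the mock points in all 6 panels, and mock 3 and hematin 1 are the lowest of their groups in each. The members were chosen by their rise. The other panels show the only 2 of the 10 other tested uc008yb models with all hematin libraries above all mock libraries.

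Among the 86 models called higher, the members, whose places are a description only, stood at 9, 21, 28 and 12 by size of the log2 fold change, in the order uc008ybl.2, uc008ybm.1,uc008ybn.1, uc008ybs.1 and uc008ybt.1. By mock CPM the places were 6, 2, 7 and 57. The group thus joined 3 of the more abundant models of that set with 1 from its lower part. In the plot of fold against level, the 3 abundant members lie where the folds of other models are narrowly spread around 0.

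**Figure D2:**
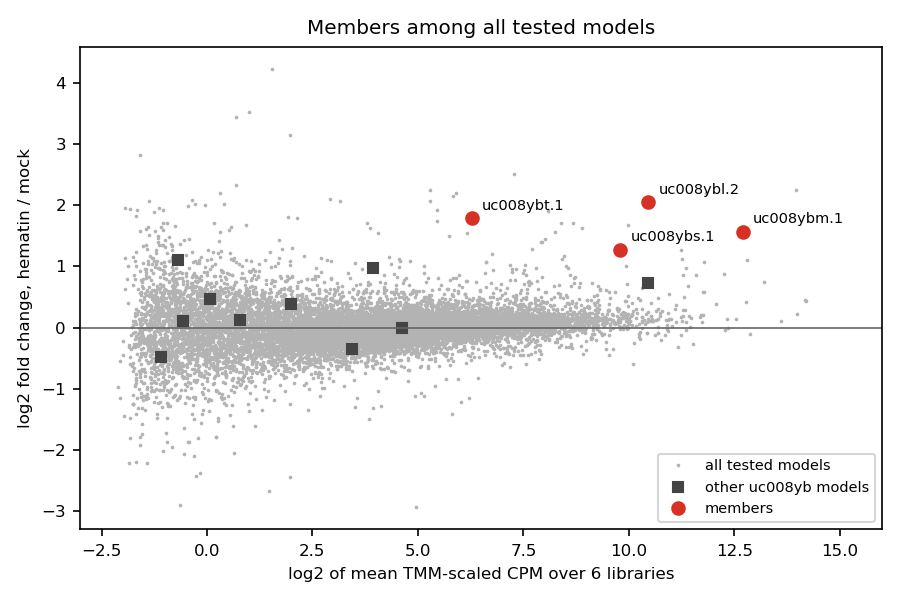
Log2 fold change, hematin over mock (vertical axis), against log2 of the mean TMM-scaled CPM over 6 libraries (horizontal axis) for 12595 tested models (grey), the 4 members (red circles) and the 10 other tested uc008yb models (dark squares). The members lie between 1.27 and 2.04 on the vertical axis, and 6 of the 10 others have a mean level under 10 CPM.

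Together the 4 models took 0.514, 0.519 and 0.392% of all expected counts in mock 1, 2 and 3 and 0.937, 1.41 and 1.43% in hematin 1, 2 and 3. Summing the members removes any division of reads among them. The summed level was 4461 ± 829 CPM in mock and 13602 ± 3656 CPM in hematin libraries (SD, n = 3), a 3.05-fold ratio of means or 1.61 on the log2 scale. Of this sum, uc008ybm.1,uc008ybn.1 alone made up 75.6 ± 3.48% in mock and 72.8 ± 2.98% in hematin libraries (SD, n = 3). The part of uc008ybl.2 was 12.0 ± 3.75% and 16.9 ± 1.99%, and that of uc008ybs.1 was 11.6 ± 0.691% and 9.45 ± 1.19% (SD, n = 3). In uc008ybl.2 the parts of the mock and hematin libraries overlapped, at 15.7, 12.1 and 8.17% against 18.1, 17.9 and 14.6%. In uc008ybs.1 they narrowly did not, at 10.96, 12.3 and 11.6% against 10.8, 9.09 and 8.48%. The parts make up a whole, so a lower part of the member with the smallest fold change restates the order of the fold changes. The part of uc008ybt.1 was 0.772 ± 0.144% and 0.885 ± 0.0223% (SD, n = 3), with overlapping libraries.

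**Figure D3:**
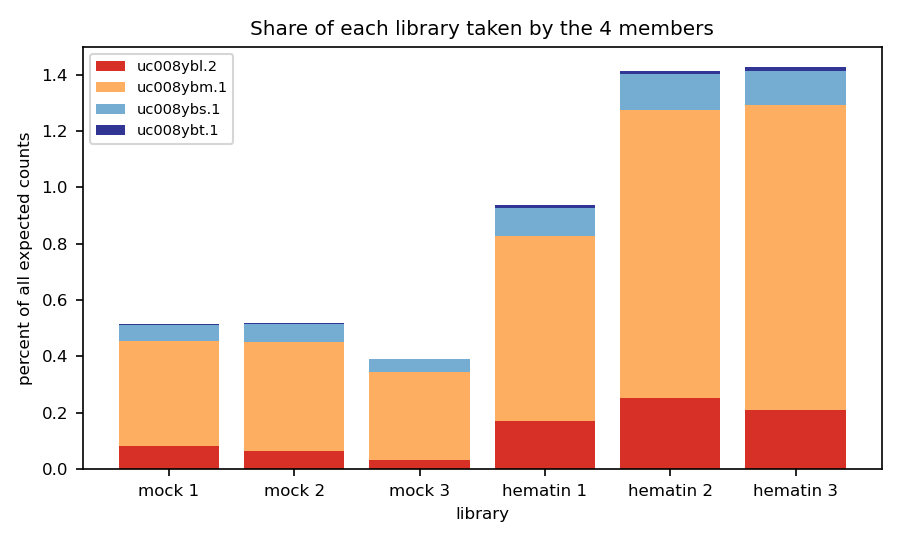
Percent of all expected counts (vertical axis, from 0) that each of the 4 members took in each of the 6 libraries (horizontal axis), stacked. The stacks reach 0.392 to 0.519% in mock and 0.937 to 1.43% in hematin libraries, and most of each stack is uc008ybm.1,uc008ybn.1.

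Levels of different models were compared in the authors' FPKM, which divides counts by a length set for each model and by library size. In every library the order was uc008ybm.1,uc008ybn.1, then uc008ybl.2, uc008ybs.1 and uc008ybt.1. In mock libraries the FPKM were 3255 ± 367, 628 ± 264, 133 ± 22.2 and 31.2 ± 8.78 in that order (SD, n = 3). In hematin libraries they were 8475 ± 2141, 2265 ± 451, 280 ± 34.2 and 93.9 ± 20.1 (SD, n = 3). Neighbours in this order lay further apart than the spread between libraries in either condition. By FPKM, uc008ybm.1,uc008ybn.1 was the 12th to 13th most abundant of all models in mock and the 5th to 6th in hematin libraries. The rank of uc008ybl.2 went from between 67 and 229 to between 21 and 30, and that of uc008ybs.1 from between 514 and 703 to between 265 and 330. The rank of uc008ybt.1 went from between 1801 and 2860 to between 692 and 1023.

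Count, FPKM and library total together imply the length that FPKM used, which need not be the full length of the model. Over the 6 libraries it was 929 to 931 bases for uc008ybl.2, 4176 to 4181 for uc008ybs.1 and 1184 to 1186 for uc008ybt.1. These rows have 1 transcript, so their length is fixed but for rounding. The row uc008ybm.1,uc008ybn.1 has 2 transcripts, and its implied length depends on their estimated mix. It was 1102, 1097 and 1098 bases in mock 1, 2 and 3 and 1091, 1087 and 1084 bases in hematin 1, 2 and 3. The groups did not overlap, but the difference is close to 1% of the length and no test was made. Of the 24 member counts, 0 were whole within 0.005, against 13.1% of the 31202 counts in the tables that were at least as high as the lowest of them. The 24 counts come from only 4 rows, and this share was not matched on their level. A count that is not whole in a row of 1 transcript can arise when some of its reads are divided with another model. Most counts of this size in the tables were not whole either. Whether and how many reads were divided cannot be read from the files.

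The members varied more between libraries of 1 group than most models did. On log2(CPM + 1) the SD between mock libraries was 0.73 for uc008ybl.2, 0.23 for uc008ybm.1,uc008ybn.1, 0.30 for uc008ybs.1 and 0.44 for uc008ybt.1. The median was 0.11 over the 7166 tested models with a mean of at least 10 CPM, of which 99.4, 88.3, 94.8 and 98.0% had an SD no higher than these. Between hematin libraries the SD were 0.37, 0.48, 0.26 and 0.41 in the same order, against a median of 0.13. That spread followed the same libraries in each member, since mock 3 and hematin 1 were the lowest of their groups in all 4. Among all tested models this held for 19.1%. The level of uc008ybl.2 in mock 3 was 0.420 times the mean of the other mock libraries, and for the other 3 members this ratio was between 0.644 and 0.767. In hematin 1 the ratio to the other hematin libraries was between 0.566 and 0.732 over the 4 members. Without both of these libraries, the log2 fold changes were 1.92, 1.69, 1.28 and 1.82 in the order used above. The part of these libraries' make-up in the members' levels was not tested.

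Among the other 17 uc008yb rows, 10 passed the edgeR filter on low counts. These were tested because they were set by identifier, but the 4 members had first been taken out of the range for their rise. Counts over the 10 therefore leave out the largest rises of the range. Of the 10, 1 was called higher and 0 lower, where 0.683% and 0.111% of all tested models were called. At an unadjusted p under 0.05 edgeR gave 3 higher and 0 lower, beside 7.02% and 7.12% of all tested models. At that level 1 was lower with plain library totals, with limma-trend on log2(FPKM + 1), without mock 3, and without mock 3 and hematin 1. Of the 3 higher, 1 had 8 to 16 counts per library in mock and 13 to 34 in hematin libraries, with overlapping groups. Its mock counts lay near the filter's limit, so the hematin libraries, where it was higher, helped it to be tested. Its log2 fold change of 1.09 ± 0.46 (SE) was the highest of the 10. After adjustment 0 were called lower by DESeq2, limma-voom or limma-trend on log2(FPKM + 1). Of the 10 fold changes 7 were above 0 and 3 below, and 2 of the 10 had all hematin libraries above all mock libraries, beside 9.75% of all models. Their median log2 fold change was 0.26, and that of all tested models was -0.0086. They ran from -0.48 to 1.09, so each of the 4 members lay above all 10. That gap is fixed in part by the choice of the members.

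The call was uc008ybz.1,uc008yca.2,uc008ycb.2, the last uc008yb row, which joins 3 transcripts. Its level was 10.03, 10.8 and 9.94 CPM in mock 1, 2 and 3 and 18.8, 20.8 and 21.2 CPM in hematin 1, 2 and 3. The groups were narrow and well apart, with means of 10.3 ± 0.490 and 20.3 ± 1.32 CPM (SD, n = 3). It rose 1.97-fold, in 3 of 3 hematin libraries, with an edgeR adjusted p of 0.00542 and a log2 fold change of 0.98 ± 0.10 (SE). Unlike the members it varied little between libraries, with an SD on log2(CPM + 1) of 0.062 in mock and 0.091 in hematin libraries. Leaving out mock 1 raised the edgeR adjusted p to 0.0548 and leaving out hematin 2 raised it to 0.0533, which ended the call at log2 fold changes of 0.96 and 0.95. Over 16 alternatives, DESeq2 and limma among them, the adjusted p ran from 2.84e-09 to 0.0548. Its implied length varied from 2821 to 3255 bases with overlapping groups. This length follows RSEM's estimated split of 253 to 575 counts among 3 transcripts, and whether the mix itself differed was not tested.

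The abundant uc008yb model uc008ybj.1, which does not adjoin a member in identifier order, was singled out after its values were seen. It stood at 1108, 1240 and 800 CPM in mock 1, 2 and 3 and at 1452, 1971 and 1795 CPM in hematin 1, 2 and 3. The groups did not overlap, but its log2 fold change of 0.73 ± 0.19 (SE) did not pass (edgeR adjusted p = 0.153). It passed with DESeq2 (adjusted p = 0.000704) and in edgeR without mock 3 and hematin 1 (0.0145), and over 16 alternatives the adjusted p ran from 0.000704 to 0.49. As in the members, mock 3 and hematin 1 were the lowest of their groups. In FPKM it was above uc008ybl.2 in each mock library and below it in each hematin library. The ratio of uc008ybl.2 to uc008ybj.1 was 0.733, 0.525 and 0.384 in mock 1, 2 and 3 and 1.25, 1.53 and 1.36 in hematin 1, 2 and 3. Of all counts in uc008yb rows, the 4 members held 80.2 ± 0.636% in mock and 88.0 ± 1.71% in hematin libraries (SD, n = 3). The direction of this share and of the ratio above is fixed in part by the choice of the members for their rise.

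Models that lie between or next to the members in identifier order were scarce. The first tested row before them, uc008ybk.1, had 0.544 ± 0.310 CPM in mock and 0.387 ± 0.0340 CPM in hematin libraries (SD, n = 3), and its log2 fold change of -0.48 ± 0.52 (SE) had an edgeR adjusted p of 0.716. The first after them, uc008ybu.1, had 0.871 ± 0.163 and 1.22 ± 0.499 CPM (SD, n = 3), with 0.46 ± 0.40 (SE; edgeR adjusted p = 0.639). Between uc008ybm.1,uc008ybn.1 and uc008ybs.1 lay uc008ybo.1,uc008ybp.1, at 3.41 ± 0.909 and 4.48 ± 0.639 CPM (SD, n = 3), with 0.39 ± 0.23 (SE; edgeR adjusted p = 0.485). None of these 3 passed in edgeR. The SE of uc008ybk.1 and uc008ybu.1 were wider than those of the members, which ran from 0.19 to 0.34. That of uc008ybo.1,uc008ybp.1 lay within the members' range, and its log2 fold change was below the smallest of theirs, 1.27. The 7 rows that were not tested reached at most 0.344 CPM in a library. Of these, 3 had no count in any of the 6 libraries, which allows a level of up to 0.0767 to 0.119 CPM (3 counts, counting error only).

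**Figure D4:**
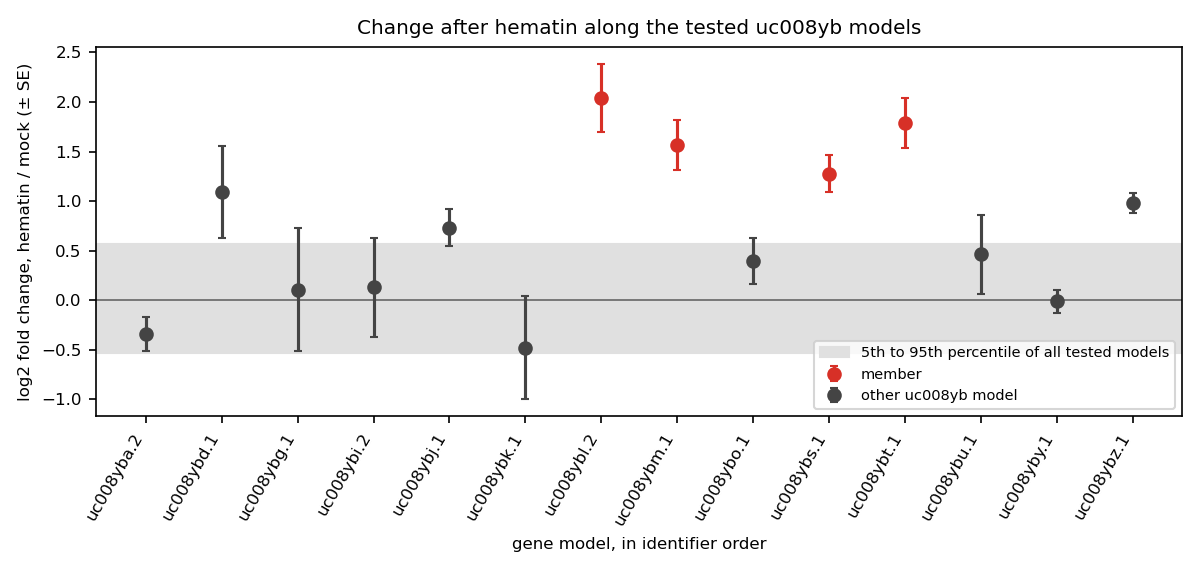
Log2 fold change, hematin over mock, with SE bars (vertical axis) for the 14 tested uc008yb models in identifier order (horizontal axis), labelled by first identifier. Members are red and other models dark, and the grey band holds the 5th to 95th percentile of all tested models (-0.54 to 0.56). The members lie above the band, and of the others uc008ybj.1, uc008ybz.1,uc008yca.2,uc008ycb.2 and a row under 1 CPM do.

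Called rises were seldom grouped by identifier elsewhere in the tables. Rows were grouped by all but the last letter of their first identifier, which made 2196 groups, of which 1958 had a tested model and 79 a model called higher. The uc008yb group held 5 called rises, the 4 members and uc008ybz.1,uc008yca.2,uc008ycb.2. No other group held more than 2. Groups differed in size, which this count leaves out. The uc008yb group had the 4 members and 10 other tested models, where 12595 tested models fell in 1958 groups. The members were proposed with this grouping in view, so the count describes it and does not test it.

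The models most like the members were found by the root mean square distance between centred log2(CPM + 1) values over the 6 libraries, among 8580 tested models of at least 5 CPM. Nearest to the mean of the members was uc009rni.1,uc012ham.1, at a distance of 0.12, where the median model lay at 0.90. Its level was 3.15, 3.66 and 1.73 CPM in mock 1, 2 and 3 and 10.1, 14.3 and 12.3 CPM in hematin 1, 2 and 3. Next was uc008juf.1, at 0.18, with 113, 155 and 75.6 CPM in mock 1, 2 and 3 and 352, 472 and 457 CPM in hematin 1, 2 and 3. Both repeat the low values of mock 3 and hematin 1. With a pseudocount of 0.25 in place of 1, the nearest were uc008juf.1 and then uc008wuu.1,uc008wuv.1,uc008wuw.1, so the first place of uc009rni.1,uc012ham.1 depends on the pseudocount. That model had a mean of 2.85 CPM in mock libraries and reached 5 CPM on average only through the hematin libraries. Among the members, uc008ybl.2 lay 0.44 from the mean of the other 3, uc008ybs.1 0.29, uc008ybm.1,uc008ybn.1 0.19 and uc008ybt.1 0.18. In this measure uc008ybz.1,uc008yca.2,uc008ycb.2 was the 42nd nearest and uc008ybj.1 the 46th. With Pearson correlation, which leaves out the size of the change, 1 of the 10 nearest models was shared and neither named model was among the 2 nearest.

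The order of the members by size of change was the same in every setting tried. In the first fit and the 17 alternatives, which share their libraries, uc008ybl.2 changed most, then uc008ybt.1, uc008ybm.1,uc008ybn.1 and uc008ybs.1. The log2 fold changes ran over 1.73 to 2.34 for uc008ybl.2, 1.57 to 2.07 for uc008ybt.1, 1.35 to 1.79 for uc008ybm.1,uc008ybn.1 and 1.08 to 1.42 for uc008ybs.1. The range of uc008ybs.1 lay below those of uc008ybt.1 and uc008ybl.2, and the other pairs of ranges overlapped. Whether the members differ from each other in size of change was not tested.

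**Figure D5:**
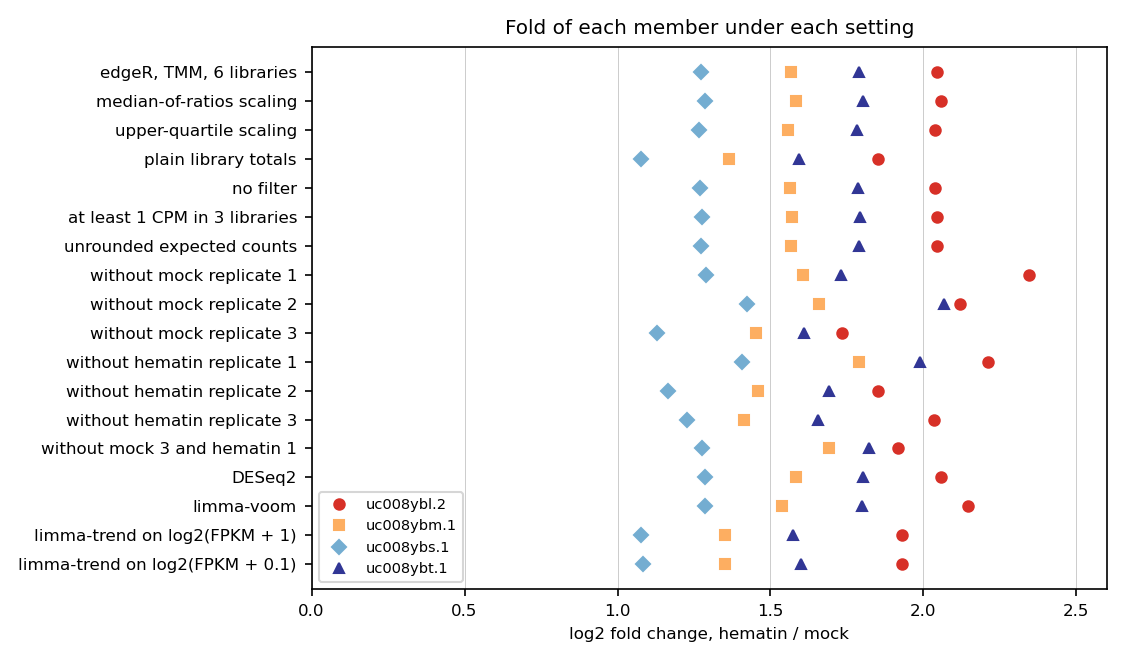
Log2 fold change, hematin over mock (horizontal axis), of the 4 members under 18 settings (vertical axis), the first being edgeR with TMM scaling on 6 libraries. Within each setting the order of the members is the same, from uc008ybs.1 at the low end to uc008ybl.2 at the high end.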

How the data were processed

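Per the labels' protocols, an Illumina TruSeq kit turned 1 μg of RNA into each library, and single ends were read over 50 nt. The tools named in the submitters' processing notes are RSEM 1.2.15, Bowtie 1.0.1, SAMtools 0.1.19 and bcl2fastq 2.15.0, with build mm9. Per the file headers, each deposited table holds an expected count and an FPKM value, both made by the authors, for each gene model. Strand use and annotation version are not stated in the labels or headers. For this reason models that overlap another have uncertain counts.

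Expected counts were rounded, filtered with filterByExpr, scaled by TMM (factors 0.899 to 1.12) and compared with edgeR 4.0.16 (glmQLFit, glmQLFTest, no covariates) in R 4.3.3, over all models. Printed CPM use unrounded counts. Adjusted p-values are Benjamini-Hochberg values over all tested models, with a threshold of 0.05. The fit was tested on simulated counts whose spread between libraries followed the trend over all models. The members' own spread was not simulated, so that run says nothing about them in particular. Alternatives used DESeq2 1.42.0 and limma 3.58.1, other scalings and filters, and left-out libraries. Replicates were compared by the chi-square of their counts over models with at least 10 counts, which was 17.2 to 87.6 per degree of freedom, so none repeated another.

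Models were named by a rule: the members, called uc008yb rows, the tested rows next to the members and the 2 nearest profiles. Outside this rule uc008ybj.1 was named after its values were seen. Also outside it, uc008wuu.1,uc008wuv.1,uc008wuw.1 was named for its place with a pseudocount of 0.25. Members, lists and alternatives were chosen with earlier results of these data known. Lists that need gene symbols were not counted.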

Additional observations from a re-analysis of the deposited data

How the results depend on the processing

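In every alternative the log2 fold change of each member and of their sum moved by less than 1 SD between replicates. This held in 17 of 17 for each member and in 13 of 13 for the sum, which ran from 1.41 to 1.81. Leaving out 1 of 3 libraries can hardly move a group mean by that much, so for those settings this measure is no test of stability. The members' wide spread between replicates also makes the measure a loose one. The number of all models called higher, 86 with edgeR, was 306 with DESeq2, 201 without mock 3 and hematin 1 together, and 12 to 180 with 1 library left out (73 without mock 3). It stayed within 1.5 times in the other 8 alternatives. The 1 call among the other uc008yb rows became 2 with DESeq2 and 2 without mock 3 and hematin 1, and 0 to 1 with 1 library left out. For these the cause was not tested. Of the 10 models nearest in profile, 10 were shared, in another order, with a pseudocount of 0.25 and 1 with Pearson correlation, which by construction leaves out the size of the change. The main limits are the 3 libraries per group, the shared low values of mock 3 and hematin 1, and identifiers not paired with symbols. No paired analysis was made, because the labels do not say whether a mock and a hematin library share a pool of mice. Sample titles of mock and hematin libraries carry different numbers.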
